A study of Mus musculus with 30 samples.

Results

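Vitamin A reaches cells as retinol and acts as retinoic acid, and 9 genes that carry, make, bind, sense or degrade these molecules are described here across the midbrain floor plate and adult brain spheres: Rbp4, Ttr, Crabp1, Crabp2, Aldh1a1, Aldh1a2, Aldh1a3, Rarb and Cyp26b1. The genes were picked by symbol and were chosen by measured values of the same libraries, so the levels given for them are a description, and where calls from the fits over all genes are counted for them, those calls rest on the values that chose them and support nothing. All 9 had a row in the sphere table of 26005 genes, and 7 had a row in the captured-tissue table of 14997 gene symbols; Aldh1a2 and Aldh1a3 had no row there.

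Retinol travels in blood bound to retinol binding protein, the product of Rbp4, which is held in a complex with transthyretin, the product of Ttr. Inside cells retinol is oxidised to retinal and then, by the retinaldehyde dehydrogenases Aldh1a1, Aldh1a2 and Aldh1a3, to retinoic acid, which is carried by the binding proteins Crabp1 and Crabp2, sensed by nuclear receptors such as Rarb and broken down by enzymes of the Cyp26 family. In the embryonic brain retinoic acid is known mainly as a signal that patterns the hindbrain and spinal cord, and Aldh1a1 is also a known marker of a subset of midbrain dopamine neurons. On the GRCm38 build (GENCODE M21) each is a protein-coding gene: Crabp1 at chr9:54764748-54773110, Crabp2 at chr3:87948666-87953376, Rbp4 at chr19:38116629-38125281, Aldh1a1 at chr19:20492715-20643465, Aldh1a2 at chr9:71215789-71296243, Aldh1a3 at chr7:66390890-66427517, Rarb at chr14:16430839-16819156, Cyp26b1 at chr6:84571414-84593908, Ttr at chr18:20665280-20674321. The build behind the deposited tables is not certain, so these positions identify the genes and were used for no value.

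The mouse tissue was floor plate, the ventral midline of the neural tube, captured from the midbrain with a laser at embryonic day 11 (E11, 4 libraries), day 13 (E13, 5), day 18 (E18, 5) and postnatal day 70 (P70, 6). The genotype given for every captured library was Lmx1aCreERT2; R26TRAPC, an inducible Cre recombinase under the control of the floor plate gene Lmx1a with a reporter at the Rosa26 locus. The second set comprised 5 MB and 5 FB libraries of spheres grown in vitro from adult tissue, with no genotype stated; the design text speaks of lateral ventricle neurospheres and of spheres of ependymal origin grown from the midbrain aqueduct, but the letters MB and FB are not spelled out. All libraries were made from amplified polyA RNA with Smart-seq2, which has no molecular identifiers and does not mark strand.

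The captured values are called units here: they were already scaled by the authors to library depth and, as far as the values show, to gene length, and genes whose mean at an age falls under about 1 unit carry no values for that age. A gene without values at an age is therefore called not listed, which is not a level of 0. Whole reads could be recovered for 70.7% of the captured genes and summed to between 945211 and 2509872 per library, lowest at P70. Sphere counts summed to between 6327198 and 9291311 per library and are given as CPM, which scales each library to the same total. The 12 ependymal and cilia markers had summed levels of 26.6 to 85.9 units at E11 (7 of the 12 with values) and 17467 to 27917 units at P70 (all 12), while the 13 floor plate and midbrain markers summed to between 723 and 875 units at E11 (all 13) and between 149.5 and 229.6 units at P70 (11 of the 13). In bulk samples fewer cells of a type and less RNA per cell cannot be told apart. No label says which libraries came from separate animals or cultures, so p-values measure only the spread between these libraries and understate the error if several captures came from 1 animal.

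Rbp4, the blood carrier of retinol, was present at all 4 ages with a wide spread between libraries. Its levels were 53.4, 12.7, 21.5 and 5.86 units at E11, and 0.451, 2.55, 2.95, 3.07 and 4.42 units at E13. At E18 the values were 44.4, 2.90, 14.9, 4.18 and 4.2 units, and at P70 they were 11.0, 16.6, 38.7, 5.36, 68.2 and 4.83 units. Every E13 library lay below every E11 library, while E18 overlapped both of its neighbours. On the log2(units + 1) scale the fitted difference was -2.44 (SE 0.75) for E13 against E11, 1.48 (SE 0.70) for E18 against E13 and 0.82 (SE 0.67) for P70 against E18. The first E18 library held most of that age's signal: without it the E18 against E13 difference was 0.91 (SE 0.67). In order of the means, P70 (24.1 ± 24.9 units, SD, n = 6) and E11 (23.4 ± 21.0, n = 4) were followed by E18 (14.1 ± 17.6, n = 5) and E13 (2.69 ± 1.44, n = 5), and the first 3 did not differ beyond their spread.

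Among the E11 captures Rbp4, Crabp1 and Aldh1a1 were each highest in library 1 and lowest in library 4. The markers of fibroblasts and meninges (10 of 13 with values at E11) were also highest in library 1 and lowest in library 4, at 773 and 249 units. At E13, where 6 of the 13 had values, they summed to between 37.1 and 140 units. Most of the E11 sum was Vtn, at 648 units in E11 library 1 and 204 units in E11 library 4. The collagen gene Col1a1 was at 19.1 and 5.67 units in those 2 libraries. Other lists shared these extremes: ependymal and cilia markers summed to 85.9 units in library 1 and 26.6 units in library 4, and astrocyte markers to 86.2 and 49.8 units. Neuron markers had the reverse extremes, at 329 and 1015 units. The part of any of these cell types in the Rbp4, Crabp1 and Aldh1a1 levels was not tested. Without E11 library 1, the difference of E13 from E11 was -1.92 (SE 0.78) for Rbp4 and -1.56 (SE 0.57) for Crabp1.

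Ttr, the plasma partner of Rbp4 and a product made in quantity by the choroid plexus, was listed only at E11 and P70. Its E11 levels were 0.352, 0.639, 2.34 and 2.02 units, from 2, 4, 15 and 11 reads. At P70 they were 1.17, 4.0, 0, 0, 13.6 and 68.1 units, and 277 reads lay in library 6 alone. That library's summed choroid plexus markers were 297 units, inside the P70 range of 234 to 359 units. Of the 14 markers 6 had values, Folr1 made up most of the sum, and Kcnj13, Kl and Aqp1 had no row. The sum was no gauge of Ttr: at E11, with Ttr at 0.352 to 2.34 units, 2 of the 14 markers summed to between 120 and 357 units. The part of choroid plexus cells in the captured Ttr level was not tested.

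Ttr in the spheres lay almost wholly in the FB group. FB libraries had 268, 270, 290, 313 and 309 counts (31.2 to 40.1 CPM), and MB libraries had 1, 1, 0, 0 and 0. Pooled over libraries, the FB level was 655 times the MB level, with an exact 95% interval of 181 to 5413 that covers counting error only. The choroid plexus list did not follow it: the 14 markers summed to between 138 and 200 CPM in FB and between 145 and 174 CPM in MB. Tmem72 and Enpp2 made up most of the sum in both groups. In FB, Kcnj13 was between 0 and 0.12 CPM, Kl between 0 and 0.602 CPM and Folr1 between 0.323 and 1.78 CPM. Only 4 of the 14 markers were tested, with 1 called higher and 1 lower in MB. The part of choroid plexus cells in the Ttr level was not tested. Rbp4 was low in both groups, with 4, 8, 20, 8 and 12 counts in MB and 0, 9, 0, 2 and 0 in FB, too few to pass the filter on low counts.

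**Figure D1:**
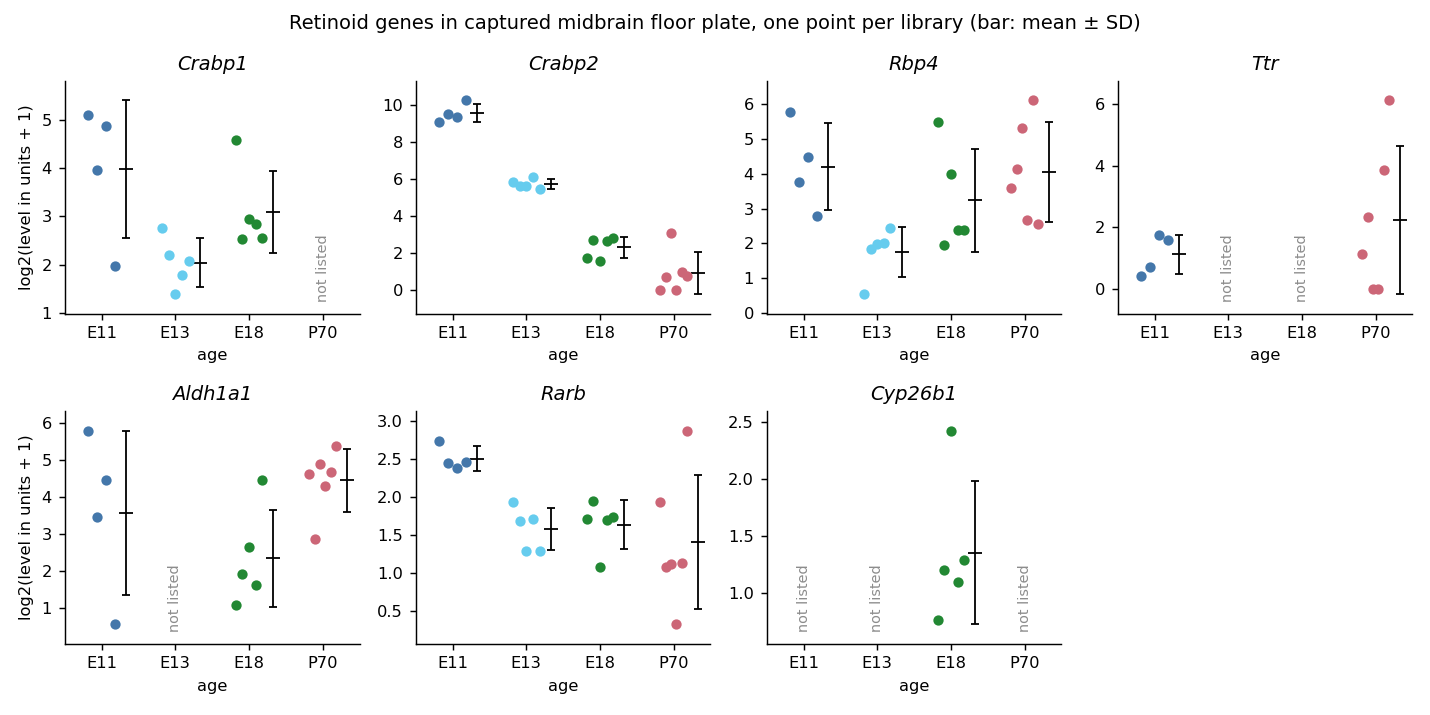
Level of the 7 members with captured values as log2(units + 1) by age, one point per library and a bar for the mean ± SD of the log values; ages without values are marked not listed. Crabp2 steps down at each age from 550 to 1213 units at E11. Most other genes spread widely within an age, while Rarb stays low and spreads widely only at P70.

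Crabp2, which delivers retinoic acid to its receptors in the nucleus, was the member with the highest captured level. At E11 its values were 550, 722, 653 and 1213 units, from 2300 to 4874 reads. At E13 they were 55.1, 47.3, 48.0, 68.4 and 43.2 units, and at E18 they were 2.37, 5.44, 2.01, 5.25 and 6.06 units. The P70 values were 0, 0.603, 7.47, 0, 0.925 and 0.667 units, from 0 to 14 reads. E11, E13 and E18 did not overlap, and P70 overlapped E18 only through its library 3. The fitted log2 difference was -3.83 (SE 0.45) from E11 to E13, -3.42 (SE 0.42) from E13 to E18 and -1.39 (SE 0.40) from E18 to P70. E11 library 4, lowest in Rbp4 and Crabp1, was highest in Crabp2. The spheres had next to no Crabp2, with 1, 1, 0, 0 and 4 counts in MB and 0, 1, 0, 0 and 0 in FB.

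Its close relative Crabp1, which also binds retinoic acid and is linked to its breakdown, took another course. The E11 levels were 33.3, 14.5, 28.2 and 2.93 units, the E13 levels 5.77, 3.60, 1.62, 2.45 and 3.23 units, and the E18 levels 22.9, 4.77, 6.71, 6.19 and 4.82 units; at P70 the gene was not listed. E11 overlapped E13 through its library 4, and E18 overlapped E13 in 2 libraries that lay below the highest E13 value. The fitted log2 difference was -1.93 (SE 0.55) for E13 against E11 and 1.05 (SE 0.51) for E18 against E13. E18 library 1 stood apart here as it did for Rbp4, and without it the latter difference was 0.67 (SE 0.49). At E11 the mean level was 19.7 ± 13.7 units (SD, n = 4) for Crabp1 and 784 ± 294 units for Crabp2, both per length.

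In spheres Crabp1 was the higher one in FB. FB libraries held 23, 47, 41, 42 and 30 counts and MB libraries 2, 6, 2, 4 and 0, with no overlap. The mean level was 4.52 ± 1.10 CPM in FB and 0.40 ± 0.334 CPM in MB (SD, n = 5 each), a fitted log2 difference of -3.50 (SE 0.60) for MB minus FB.

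Aldh1a1, the retinaldehyde dehydrogenase of dopamine neurons, was listed at 3 of the 4 ages. Its E11 levels were 54.2, 10.04, 21.2 and 0.466 units, from 4 to 485 reads. At E18 they were 1.11, 2.76, 5.22, 2.09 and 20.8 units, and at P70 they were 23.4, 6.21, 28.5, 18.8, 24.5 and 40.6 units. The E11 libraries spanned the whole range of the other 2 ages, and E18 overlapped P70 only through its library 5. The fitted log2 difference of P70 from E18 was 2.11 (SE 0.74), and without E18 library 5 it was 2.64 (SE 0.72).

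E18 library 5, highest in Aldh1a1, also had the highest sum of dopamine neuron markers at that age, 353 units against 51.1 to 291 units in the others. The other E18 libraries did not follow that order: library 4, at 291 units, had less Aldh1a1 than libraries 2 and 3, at 101 and 251 units. Library 5 was also highest in microglia and macrophage markers, at 470 units against 93.9 to 336 units. At P70 the order was different: the 2 libraries with the lowest sums, 31.8 and 76.0 units, had the highest Aldh1a1, 28.5 and 40.6 units. All 9 dopamine markers had values at both ages, and in those 2 P70 libraries Drd2 and Pitx3 were at 0. The endothelial and mural markers (6 of 12 with values) summed to 109 units in the P70 library with 40.6 units of Aldh1a1 and to between 23.6 and 50.2 units in the others. Neuron markers (9 of 9) summed to 652 and 883 units in the P70 libraries with 28.5 and 40.6 units of Aldh1a1, and to between 317 and 468 units in the others. Erythroid markers (4 of 8 with values) summed to 446 units in the library with 28.5 units of Aldh1a1 and to between 7.12 and 33.9 units in the others. The part of any of these cell types in the Aldh1a1 level was not tested.

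**Figure D2:**
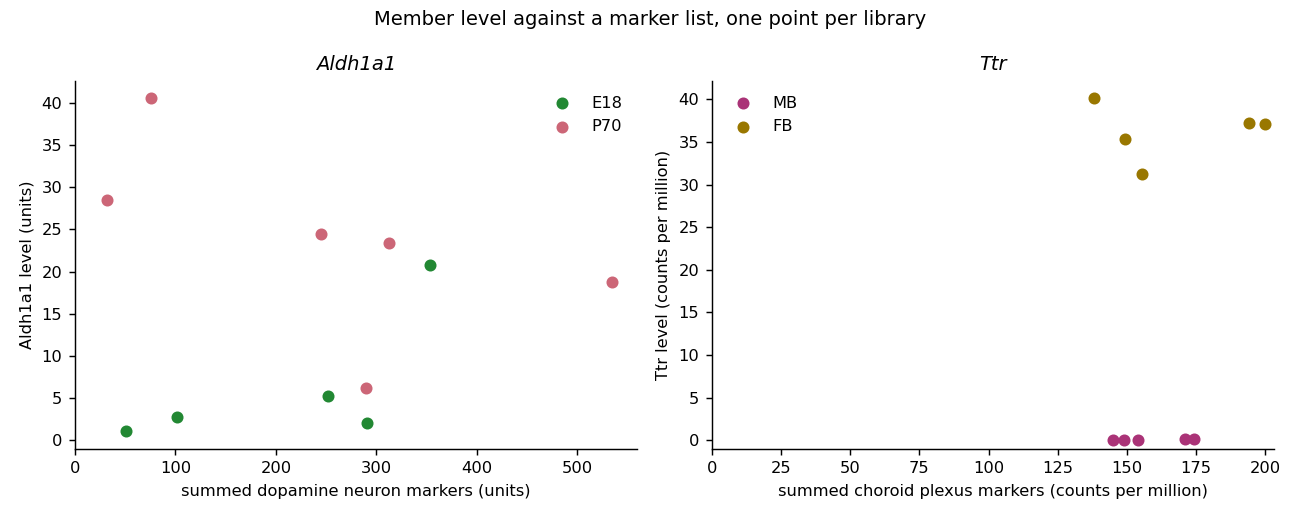
Left, Aldh1a1 level against the summed level of 9 dopamine neuron markers in each E18 and P70 library (units); right, Ttr level against the summed level of 14 choroid plexus markers in each sphere library (CPM). The P70 library with the most Aldh1a1, 40.6 units, had 76.0 units of dopamine markers, and the FB libraries had 31.2 to 40.1 CPM of Ttr over a range of choroid sums that the MB libraries share.

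In the spheres Aldh1a1 and Aldh1a3, which catalyse the same step, differed in opposite directions. MB libraries had 697, 623, 594, 448 and 774 counts of Aldh1a1 and FB libraries 18, 6, 63, 31 and 67. The mean was 86.1 ± 15.2 CPM in MB and 4.40 ± 2.98 CPM in FB (SD, n = 5 each), a fitted log2 difference of 4.23 (SE 0.31). Aldh1a3 counts were 129, 70, 127, 82 and 83 in MB and 404, 407, 626, 443 and 581 in FB. The mean was 13.5 ± 3.53 CPM in MB and 60.7 ± 7.94 CPM in FB, a log2 difference of -2.20 (SE 0.17). Neither gene's groups overlapped. Aldh1a2, the enzyme of the early embryo and the meninges, had 0, 0, 0, 0 and 1 counts in MB and 3, 0, 12, 7 and 0 in FB.

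Of the 9 dopamine neuron markers, the 8 with a row in the sphere table summed to between 10.4 and 17.0 CPM in MB and between 9.61 and 11.4 CPM in FB, and Th, the rate-limiting enzyme of dopamine synthesis, was between 0 and 0.722 CPM in MB. Only 2 of these markers passed the filter on low counts, of which 1 was called higher in MB. Ependymal and cilia markers (12 of 12) summed to between 39.0 and 52.4 CPM in MB and between 21.6 and 27.5 CPM in FB, and neuron markers (9 of 9) to between 261 and 308 CPM in MB and between 197 and 243 CPM in FB, neither with overlap. Of 4 ependymal markers tested, 3 were called higher and 0 lower in MB. The neuron markers did not move as a set: of 6 tested, 2 were called higher and 1 lower, with a median log2 difference of -0.04. Astrocyte markers (10 of 10) summed to between 3271 and 3462 CPM in MB and between 3146 and 3452 CPM in FB. Oligodendrocyte lineage markers (9 of 9) summed to between 2746 and 3437 CPM in MB and between 3283 and 3724 CPM in FB. Of 9 tested in each list, 5 and 2 were called higher and 3 and 4 lower in MB. Endothelial and mural markers (11 of 12) summed to between 25.7 and 37.5 CPM in MB and between 18.7 and 25.4 CPM in FB. Of 3 tested, 1 was called higher and 1 lower. Forebrain markers (8 of 9 with a row) summed to between 33.6 and 59.5 CPM in FB and between 0.475 and 2.05 CPM in MB, and floor plate and midbrain markers to between 126 and 147 CPM in FB and between 516 and 628 CPM in MB. The part of these markers in the members' differences was not tested, and region of origin and sphere type cannot be told apart in this design.

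Rarb encodes the retinoic acid receptor beta, known as a direct target of the hormone it senses through a repeat in its promoter. The promoter is shown because it holds such a repeat. Promoter windows from RefSeq (GRCm38.p6, 250 bases before to 50 after the start) were at hand for 6 members in 8 windows: Rarb, Crabp1, Cyp26b1, Aldh1a2, Rbp4 and Aldh1a1, the last 2 with a pair each. Each was searched on both strands for 2 half-sites in the same direction with 1, 2 or 5 bases between them, each being AGGTCA, which is the usual form, or AGTTCA, or else GGGTCA or the further variant GGTTCA. Only the Rarb window matched, with GGTTCA followed after 5 bases by the second half-site AGTTCA, from 53 to 37 bases before the start. That spacing occurred in 32 of 32851 windows (0.0974%), and any of the 3 spacings in 193 (0.588%). The windows of Rarb and of Crabp1 and Aldh1a1, which differed between the sphere groups in opposite directions, follow with their strand; capitals mark the base where transcription starts and, in Rarb, both half-sites.
Rarb chr14:16575427-16575726, minus strand: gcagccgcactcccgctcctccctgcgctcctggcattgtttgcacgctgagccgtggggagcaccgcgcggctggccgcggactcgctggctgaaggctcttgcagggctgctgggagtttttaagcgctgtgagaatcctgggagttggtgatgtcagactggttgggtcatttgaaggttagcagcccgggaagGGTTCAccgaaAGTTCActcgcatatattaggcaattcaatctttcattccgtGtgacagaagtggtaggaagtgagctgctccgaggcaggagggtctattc
Crabp1 chr9:54764498-54764797, plus strand: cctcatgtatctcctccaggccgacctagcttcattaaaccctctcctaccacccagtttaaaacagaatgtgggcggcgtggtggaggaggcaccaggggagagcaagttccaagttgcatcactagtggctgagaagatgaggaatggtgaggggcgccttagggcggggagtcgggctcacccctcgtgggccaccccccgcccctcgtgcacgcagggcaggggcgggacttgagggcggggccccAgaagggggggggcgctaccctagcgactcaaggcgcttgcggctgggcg
Aldh1a1 chr19:20492333-20492632, plus strand: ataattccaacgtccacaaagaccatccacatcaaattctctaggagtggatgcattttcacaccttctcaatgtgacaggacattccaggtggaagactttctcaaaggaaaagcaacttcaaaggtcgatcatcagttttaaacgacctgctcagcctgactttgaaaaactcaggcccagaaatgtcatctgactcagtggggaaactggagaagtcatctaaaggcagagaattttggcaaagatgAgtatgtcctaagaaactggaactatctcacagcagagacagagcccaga
Aldh1a1 chr19:20601718-20602017, plus strand: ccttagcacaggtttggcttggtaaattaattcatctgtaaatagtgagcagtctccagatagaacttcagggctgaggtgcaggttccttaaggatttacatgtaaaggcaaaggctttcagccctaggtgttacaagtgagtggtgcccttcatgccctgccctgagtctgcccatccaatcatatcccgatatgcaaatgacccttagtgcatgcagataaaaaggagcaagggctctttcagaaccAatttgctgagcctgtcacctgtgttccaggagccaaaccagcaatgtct

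A match describes the letters and is no evidence of binding, and a window without one says nothing about sites elsewhere. In these windows 57.7% of the Rarb bases, 65.0% of the Crabp1 bases and 43.3% and 47.0% of the Aldh1a1 bases were G or C.

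Rarb itself was low in the captured tissue. Its E11 levels were 5.69, 4.43, 4.2 and 4.50 units, and at E13 they were 2.81, 2.21, 1.45, 2.28 and 1.45 units. The E18 levels were 2.28, 2.87, 1.12, 2.26 and 2.33 units and the P70 levels 2.82, 1.11, 1.18, 0.255, 1.19 and 6.33 units. All E11 libraries lay above all E13 and E18 libraries, and P70 spanned the full range. The fitted log2 difference was -0.92 (SE 0.35) for E13 against E11, 0.06 (SE 0.34) for E18 against E13 and -0.23 (SE 0.33) for P70 against E18. The first of these was past the threshold under 3 of the alternative settings, though not as reported. The last 3 ages did not differ beyond their spread, with means of 2.04 ± 0.586, 2.17 ± 0.639 and 2.15 ± 2.21 units (SD, n = 5, 5 and 6). The P70 library with the most Rarb was also the one with the most Ttr and Aldh1a1.

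Rarb in spheres went with Aldh1a1. MB libraries had 48, 26, 66, 64 and 71 counts and FB libraries 14, 1, 3, 7 and 14, with no overlap. The mean was 7.56 ± 2.52 CPM in MB and 1.01 ± 0.854 CPM in FB (SD, n = 5 each), a fitted log2 difference of 2.88 (SE 0.55).

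Cyp26b1, which degrades retinoic acid, was near the limit of both tables. It was listed at E18 alone, at 0.696, 1.29, 4.36, 1.13 and 1.44 units from 6, 14, 50, 11 and 14 reads, with library 3 above the rest. In spheres it had 0, 2, 1, 1 and 9 counts in MB and 1, 0, 3, 0 and 0 in FB, and it was filtered out as low.

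**Figure D3:**
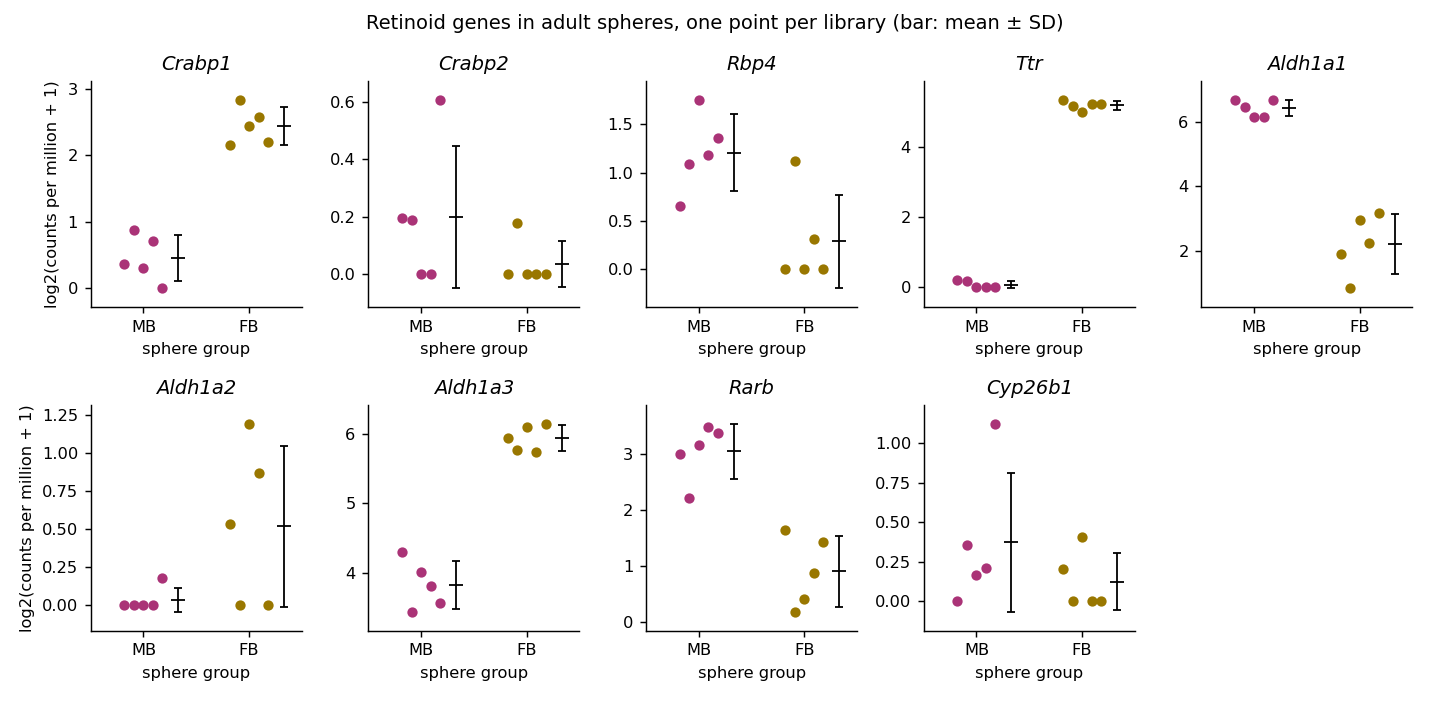
Level of all 9 members as log2(CPM + 1) in the 5 MB and 5 FB sphere libraries, one point per library and a bar for the mean ± SD of the log values, each panel with its own axis. Aldh1a1 and Rarb lie higher in MB and Ttr, Aldh1a3 and Crabp1 higher in FB without overlap, while Crabp2, Aldh1a2 and Cyp26b1 stay near 0.

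Read against the whole tables, the number of members past the threshold stands as follows; since the same contrasts chose the members, nothing is read from it. A gene counts as called at an adjusted p below 0.05, from limma for the captures and from edgeR's quasi-likelihood test for the spheres, with Benjamini-Hochberg adjustment over all genes tested. For E13 against E11, 3 of 4 testable members were called lower and 0 higher, with 11.5% of all 11567 genes called lower and 9.44% higher. The 3 were Crabp2, Rbp4 and Crabp1, and without E11 library 1 or without E11 library 3 only 1 remained called. For E18 against E13, Crabp2 was called lower, 1 of 4 (25.0% of 11797 genes lower, 22.4% higher). For P70 against E18, Crabp2 was called lower and Aldh1a1 higher, 2 of 4 (24.0% of 12353 genes lower, 16.9% higher). Aldh1a1 lost its call without E18 library 1, 2 or 4 and without P70 library 3 or 6. In the spheres 5 members passed the filter on low counts, and 2 were called higher and 3 lower in MB (15.3% of 12886 genes higher, 14.3% lower). The filter kept genes with enough counts in 1 group, so the 4 members it dropped are not part of that count.

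Beyond these genes, a wider list of 57 retinoid genes was followed, of which 36 had a captured row and 53 a sphere row. At the start of the series, E13 against E11, 27 of them were tested; 3 rose and 2 fell, beside 9.44% of all genes called higher and 11.5% lower, and their median log2 change was -0.18 against -0.04 over all genes. Cell type markers moved between these ages as well. Of those tested, 8 of 8 microglia and macrophage markers and 5 of 9 neuron markers rose. Among fibroblast and meninges markers 5 of 6 fell, and of 5 astrocyte markers 3 rose and 1 fell. The summed astrocyte markers (6 of 10 with values) were 49.8 to 86.2 units at E11 and 302 to 511 units at E13. These sums do not cover the same genes: Agt had values at E11 and not at E13, and Aqp4 the reverse. The part of these cell types in the changes of the list was not tested. Fabp5, a carrier that can pass retinoic acid to other nuclear receptors, rose from 141 ± 13.9 to 265 ± 49.1 units (log2 change 0.89, SE 0.17, adjusted p = 0.000549, limma). Rdh14, a retinol dehydrogenase, rose from 20.7 ± 2.99 to 36.8 ± 5.6 units (0.80, SE 0.21, adjusted p = 0.00781, limma). Among the nuclear receptors, Rxra fell from 8.32 ± 0.401 to 3.03 ± 0.601 units (-1.22, SE 0.29, adjusted p = 0.00383, limma). Rxrg rose from 2.99 ± 0.389 to 10.1 ± 4.27 units (1.41, SE 0.50, adjusted p = 0.0472, limma), a call lost when any one of 8 of the 9 libraries was left out. Rarres1, a response gene, fell from 6.13 ± 3.62 to 1.64 ± 1.19 units (-1.40, SE 0.43, adjusted p = 0.0248, limma) and lost its call without E11 library 1, 2 or 3 or E13 library 1 or 2. Stra6, the cell surface receptor for the Rbp4 carrier, was listed at E11 only, at 9.46, 4.54, 6.54 and 3.56 units.

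Between E13 and E18, 3 of the 9 retinol, retinal and carotene enzymes tested rose and 1 fell. Of all 27 list genes tested, 7 rose and 3 fell, beside 22.4% of all genes called higher and 25.0% lower, and the median was 0.30 against -0.04 over all genes. Dhrs3, which turns retinal back into retinol, rose from 13.1 ± 9.45 to 377 ± 63.9 units (log2 change 5.01, SE 0.36, adjusted p = 2.47e-10, limma). Rdh5, another retinol dehydrogenase, rose from 2.74 ± 1.14 to 97.6 ± 23.6 units (4.75, SE 0.24, adjusted p = 1.20e-12, limma). Retsat, which saturates retinol, rose from 3.15 ± 1.12 to 10.5 ± 3.27 units (1.48, SE 0.25, adjusted p = 4.18e-05, limma). Rarres2, which encodes chemerin and also stands on the ependymal marker list used here, rose from 1.16 ± 0.756 to 119 ± 35.6 units (5.83, SE 0.38, adjusted p = 4.02e-11, limma), and Meis2, a homeobox gene, from 2.25 ± 0.966 to 10.4 ± 4.75 units (1.76, SE 0.36, adjusted p = 0.000366, limma). Among those that fell, Adh5 went from 243 ± 27.7 to 92.5 ± 6.05 units (-1.38, SE 0.13, adjusted p = 3.04e-08, limma) and Fabp5 from 265 ± 49.1 to 113 ± 20.5 units (-1.22, SE 0.16, adjusted p = 1.45e-06, limma). The summed ependymal markers were 48.2 to 94.4 units at E13 (7 of 12 with values) and 6952 to 10146 units at E18 (all 12), and their part in these changes was not tested.

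From E18 to P70, 30 genes were tested, 6 rose and 7 fell, beside 16.9% of all genes called higher and 24.0% lower, with a median of -0.18 against -0.14 over all genes. Rarres2 rose again, from 119 ± 35.6 to 2851 units on average (log2 change 4.56, SE 0.36, adjusted p = 3.85e-09, limma). Tgm2, a transglutaminase induced by retinoic acid, rose from 3.2 ± 1.3 to 21.6 ± 8.90 units (2.37, SE 0.31, adjusted p = 9.67e-06, limma). Rdh10, the main enzyme from retinol to retinal in the embryo, rose from 4.39 ± 1.47 to 15.1 ± 3.27 units (1.6, SE 0.21, adjusted p = 4.41e-06, limma), Retsat from 10.5 ± 3.27 to 22.6 ± 3.08 units and Rxra from 6.10 ± 1.41 to 13.1 ± 6.40 units. Fabp5 (113 ± 20.5 to 62.2 ± 7.49 units), Rdh11, a retinal reductase (15.5 ± 3.39 to 5.86 ± 3.81 units), and the transcription factor genes Meis1 (23.6 ± 2.09 to 9.04 ± 5.20 units), Meis2 (10.4 ± 4.75 to 2.55 ± 2.19 units) and Nr2f2 (84.8 ± 49.8 to 24.7 ± 10.8 units) fell. Ependymal markers summed to between 17467 and 27917 units at P70, and neuron markers summed to between 1109 and 3717 units at E18 and between 317 and 883 units at P70 (9 of 9 at both); their part was not tested. With each library rescaled to a common median, the median of all genes shifted by 0.15, and the split over all genes moved from 2082 higher and 2960 lower to 2615 higher and 2169 lower. The split of the list moved too, to 7 higher and 6 lower with a median of -0.05, so it depends on the scaling. The 10 genes named here, which had the smallest p, kept direction and call.

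**Figure D4:**
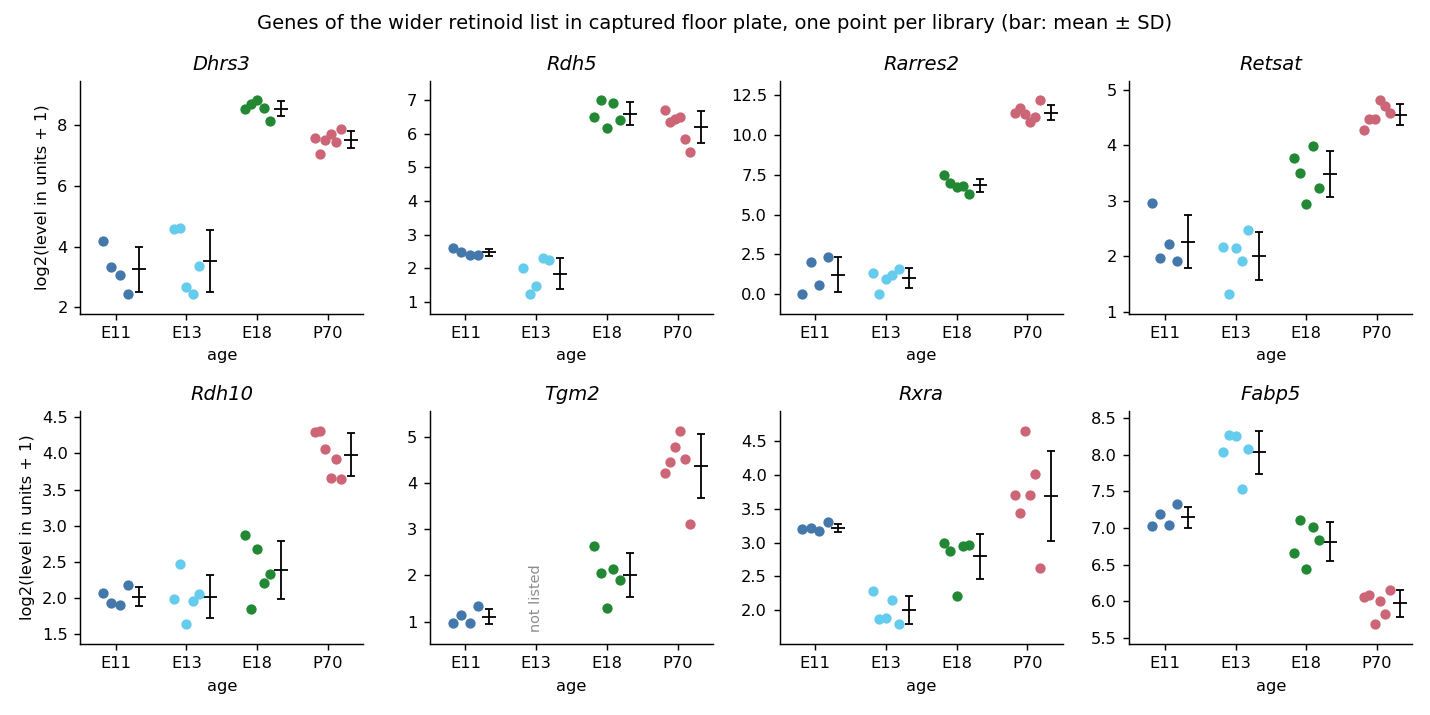
Level of 8 genes of the wider list as log2(units + 1) by age, one point per library and a bar for the mean ± SD of the log values. Dhrs3, Rdh5 and Rarres2 step up between E13 and E18, and Fabp5 peaks at E13 with 265 units on average.

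In the spheres 29 genes of the list were tested, 6 were higher and 5 lower in MB, beside 15.3% of all genes called higher and 14.3% lower, and the median log2 difference was 0.19 against -0.02 over all genes. Meis2 was lower in MB, at 17.1 ± 4.82 against 84.3 ± 10.2 CPM (log2 difference -2.33, SE 0.16, adjusted p = 1.29e-09, edgeR). Rlbp1, a retinal carrier, was also lower, at 28.3 ± 4.23 against 51.0 ± 7.43 CPM (-0.88, SE 0.14, adjusted p = 6.46e-05, edgeR), as was Meis1 (52.9 ± 6.24 against 77.2 ± 4.38 CPM). Higher in MB were Fabp5, at 491 ± 19.0 against 340 ± 15.7 CPM (0.51, SE 0.05, adjusted p = 3.58e-07, edgeR), Nr2f2 (6.84 ± 1.28 against 2.13 ± 0.590 CPM), Rarres2 (6.96 ± 1.35 against 2.33 ± 1.29 CPM), Rdh14 (46.0 ± 5.93 against 33.5 ± 3.58 CPM) and Retsat (36.3 ± 4.65 against 23.0 ± 6.74 CPM). Rdh14 and Retsat lost their calls without MB library 3. The 8 Hox genes of the list, classic retinoic acid targets of the hindbrain, had no captured row, and the 6 with a sphere row reached at most 20 counts in any MB library and 5 in any FB library.

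**Figure D5:**
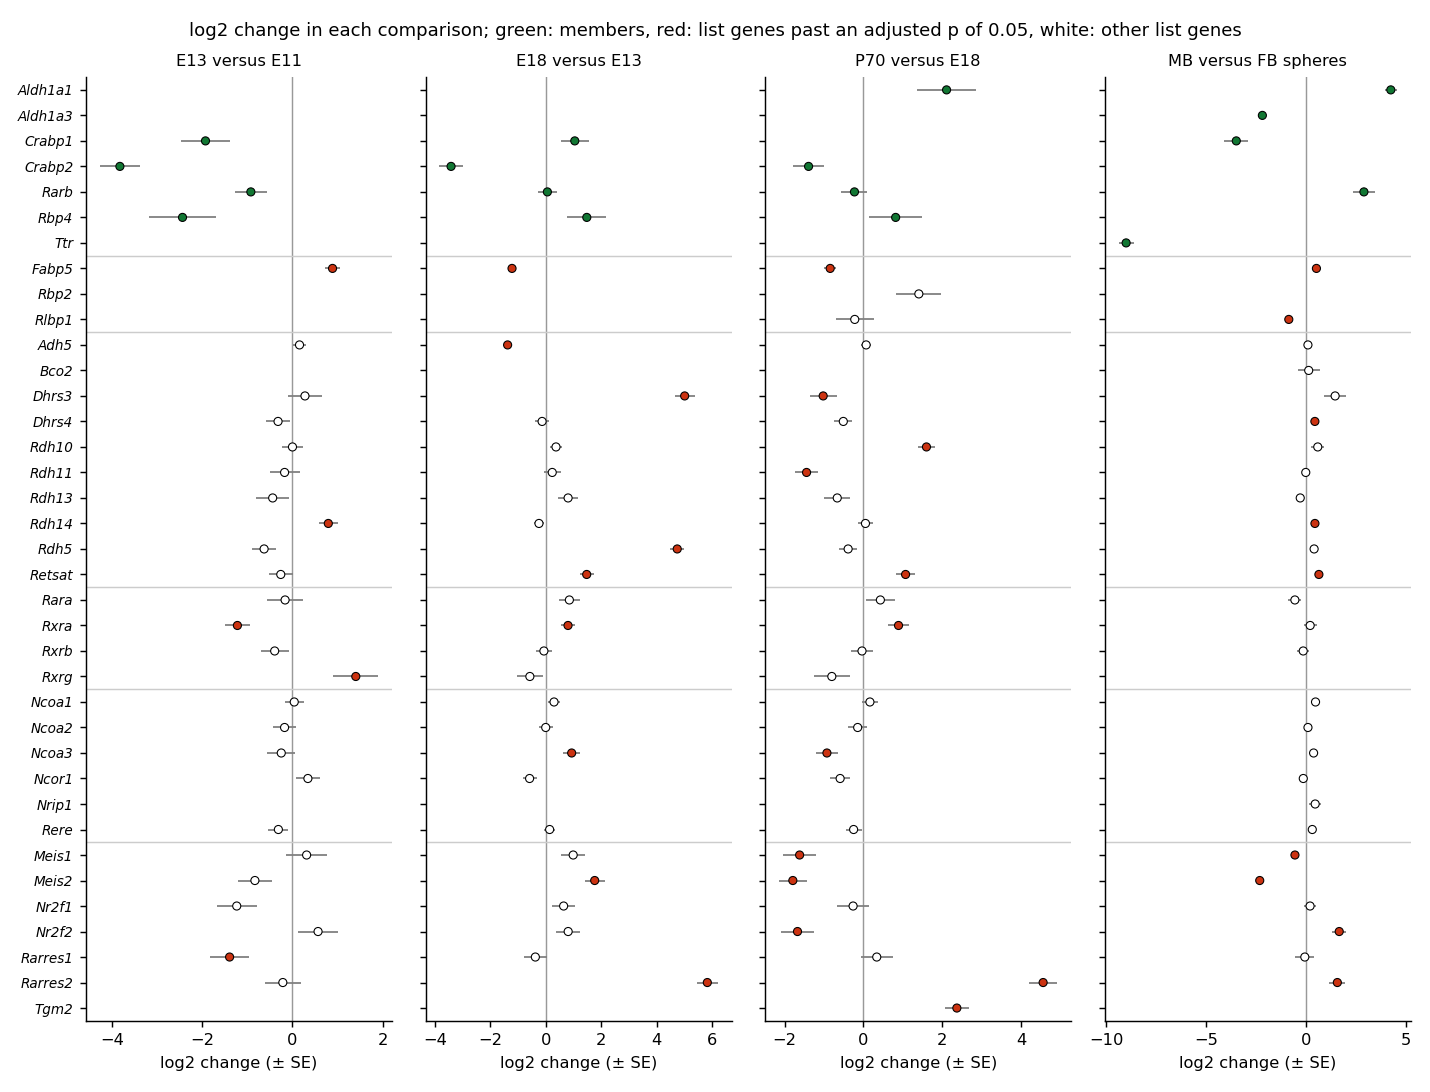
Fitted log2 change (± SE) of the members (green) and of genes of the wider list in each comparison, on log2(units + 1) for the captures and from counts for the spheres; red marks list genes past an adjusted p of 0.05 and gaps mark genes not tested. Crabp2 is below 0 in all 3 age comparisons, and the list spreads to both sides of 0 in every panel; the Ttr value of -9.01 depends on the prior count and is no bound.

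The genes nearest to a member in their course over the 4 ages were sought among those with a mean of at least 5 units at an age, by the root mean square difference of centred mean log2(units + 1) levels. For Rarb they were Ppp6r3 (0.024), Isyna1 (0.042) and Npepl1 (0.042) out of 9332 genes. For Rbp4 they were Scd1 (0.29), Mirlet7d (0.32) and Shroom3 (0.36) out of 9331. Crabp2 had no close neighbour, the nearest being Gmnn (0.84), Cenpa (0.95) and Cdca8 (0.96), which went from means of 201, 349 and 309 units at E11 to 2.0, 2.09 and 1.80 units at P70. These distances rest on 4 age means and are a description only. They also depend on the added 1 unit, which shrinks log2 differences more at low levels. Rarb means were 2.04 to 4.70 units, against 16.6 to 76.7 units for its 3 nearest genes.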

How the data were processed

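PolyA RNA was profiled with Smart-seq2 in 20 captured libraries and 10 sphere libraries. The sphere table holds raw counts per gene as deposited by the authors; the counting step is not stated in the labels. The captured table holds values the authors had scaled to depth and, as far as the values show, to gene length; they are neither counts nor a stated unit and are called units. Per the submitters' processing notes, the tools named are Salmon 1.6.0, STAR 2.3 and DESeq2 1.34.0 and the builds named are GRCm39 and mm10, without roles. Of 15139 captured lines, 142 with 11 repeated symbols were left out.

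Captured values were tested as log2(units + 1) with limma 3.58.1 (trend, neighbouring ages contrasted, genes listed at both ages). All 20 libraries entered the fit of a gene listed at all 4 ages. For other genes, such as Aldh1a1 and Crabp1, the libraries of an age without values were left out. Sphere counts were tested with edgeR 4.0.16 (filterByExpr, TMM, quasi-likelihood), with DESeq2 1.42.0 as an alternative; R was 4.3.3. The Benjamini-Hochberg adjustment covered every gene of a comparison, and the threshold was 0.05. Library totals set the precision: a captured value of a few units rests on few reads. Groups follow the sample labels. On simulated data 4-fold changes were recovered for 97.0%, 95.5% and 92.4% of the changed genes in the 3 age comparisons (11567, 11797 and 12353 genes) and for 97.0% in the spheres (12886 genes). Recovery of 2-fold changes was 44.8%, 52.2%, 44.8% and 70.1% in the same order, and that of 1.5-fold changes 10.4%, 14.9%, 8.96% and 41.8%, so most small changes were missed there. Only 66 or 67 genes per size of change were altered, fewer than were called in the data. The adjustment was therefore stricter in the simulation, and its rates need not hold for the data.

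The members and all gene lists were chosen with earlier results of these data known. Named list genes are up to 5 per direction and comparison with the smallest p. Some genes of the wider list that this rule names are not reported here; the counts include them. Whole reads were recovered where every value of a gene was a whole multiple of 1 step within 0.01. Gene symbols were matched by name, then by synonym; 0 columns of per-sample values were left unmatched. Sequences come from RefSeq. Alternatives tried were pseudocounts of 0.5 and 5, a minimum mean of 5 units, fits of 2 ages only, rescaled libraries, other size factors, no filter, a replicate block and leaving out each library.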

Additional observations from a re-analysis of the deposited data

Results flagged for a closer look

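In groups of 4 to 6 libraries, 1 library stood apart from the others by Dixon's criterion in 16 of the 150 gene and group combinations checked. Chance flags about 1 in 20 groups of normally distributed values. The levels here were not log transformed and some lay at 0, where 1 count can set a library apart, so no excess over chance is read from the number. Among the captures, E18 library 1 was highest in Crabp1 (22.9 units, next 6.71) and Rbp4 (44.4, next 14.9), E18 library 5 in Aldh1a1 (20.8, next 5.22) and E18 library 3 in Cyp26b1 (4.36, next 1.44), while E18 library 3 was lowest in Rxra (3.61, next 6.37). P70 library 3 was highest in Crabp2 (7.47 units, next 0.925), P70 library 6 in Ttr (68.1, next 13.6) and Adh5 (137, next 103), and P70 library 1 in Rarres1 (5.06, next 1.36). E11 library 2 was highest in Rdh14 (25.2 units, next 19.7). Among the spheres, MB library 5 was highest in Crabp2 (0.524 CPM), Cyp26b1 (1.18 CPM) and Aldh1a2 (0.131 CPM), from 4, 9 and 1 counts. FB library 2 was highest in Crabp2 (0.131 CPM, 1 count) and Rbp4 (1.18 CPM, 9 counts), and MB library 4 in Rdh11 (106 CPM, next 88.7).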

How the results depend on the processing

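Over all genes, fitting only the E11 and E13 libraries called 3811 genes in place of 2421; no other setting moved a count over all genes by more than 1.5 times. Leaving out one library gave 1773 to 2238 calls for E13 against E11, 5045 to 5405 for E18 against E13, 4395 to 5186 for P70 against E18 and 3422 to 3632 for the spheres. Members called ranged from 1 to 3, 1 to 1, 1 to 2 and 5 to 5 in the same order, and genes of the wider list from 3 to 5, 10 to 12, 12 to 14 and 9 to 14. For E13 against E11, 4 members were called in place of 3 with a pseudocount of 5 units, with only those 2 ages fitted and with the replicate block, Rarb being the added one (log2 change -0.46, -0.92 and -0.91). For E18 against E13, 2 members were called with only those 2 ages fitted and with the replicate block, Crabp1 being the added one; the cause was not tested. For P70 against E18, 1 was called with a pseudocount of 5 units, where Crabp2 changed by -0.54, and with a minimum mean of 5 units, which drops Crabp2. The E18 against E13 change of Rarb turned sign without E13 library 3 (-0.016), E13 library 5 (-0.016) or E18 library 2 (-0.022), against 0.06 with all libraries and at most 0.19 when another was left out. The replicate block called 2655, 5824, 5004 and 3650 genes in the 4 comparisons. Same-numbered libraries correlated between -0.146 and 0.239 in their deviations, and some but not all matched their own number best. With so few libraries such correlations cannot tell whether the numbers pair the samples. Values of about 1 unit and sphere counts under about 10 are limited by depth.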
